A study of Mus musculus with 2 samples.

Results

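The 10 genes described here are those known to be high in naive T cells (Lef1, Tcf7, Satb1, Dapl1 and Igfbp4) and those that mark or set the CD4 and CD8 lineages (Cd4, Cd8a, Cd8b1, Zbtb7b and Runx3). They were taken by symbol from the 32285 genes of both libraries, and all 10 were listed. Popliteal lymph nodes (PLNs), which drain the hindpaw, came from male TNF-Tg mice on a C57BL/6 background, a line in which a TNF transgene causes inflammatory-erosive arthritis. One library held 6 PLNs pooled from 3 mice with Early arthritis at 5 to 6 months of age, and the other held 6 PLNs pooled from 3 mice with Advanced arthritis at over 8 months. Both groups carried the transgene and no other agent is given, and live nucleated cells were sorted without a lineage marker. Because each stage is 1 library, age, stage and library cannot be told apart, and every difference below is a size with a 95% interval for counting error only, without a test.

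T cells were gated on raw unique molecular identifiers (UMIs, each 1 counted transcript). A T-lineage cell had at least 2 UMIs of the CD3 chain genes Cd3d, Cd3e and Cd3g, and more of them than of 4 B cell genes. Each cell was then placed, in this order, among precursor cells (at least 2 UMIs of Dntt, Rag1, Rag2 and Arpp21), regulatory cells (Foxp3), NK-gene cells (at least 2 UMIs of 12 NK receptor genes), CD8 cells (Cd8a or Cd8b1 without Cd4) and CD4 cells (Cd4 without Cd8a or Cd8b1). Cells with both coreceptors or neither are called other T cells. The gates held 28 Early and 156 Advanced CD4 cells, 17 and 158 CD8 cells, 63 and 164 regulatory cells, 39 and 514 NK-gene cells, 20 and 97 precursor cells, and 20 and 144 other T cells. B cells without a CD3 UMI, 7589 Early and 5466 Advanced, served as the reference for T cell RNA found outside T cells.

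TCF1, the product of Tcf7, and LEF1 are related DNA-binding proteins that act with beta-catenin and with Groucho-type corepressors, and both are needed in thymocytes and kept high in resting T cells. SATB1 organises chromatin loops in thymocytes, Dapl1 encodes a small protein known mainly as a marker of naive T cells, and Igfbp4 encodes a secreted binding protein for insulin-like growth factors. As a thymocyte leaves the stage with both coreceptors, ThPOK, encoded by Zbtb7b, holds the CD4 fate and represses the CD8 programme, whereas RUNX3 silences Cd4 and Zbtb7b and drives the CD8 fate.

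The genes lie on 6 chromosomes of GRCm38. Of the naive factors, Lef1 spans chr3:131110471-131224356 (plus strand), Tcf7 chr11:52252371-52283014 (minus), Satb1 chr17:51736187-51833290 (minus), Dapl1 chr2:59484653-59505020 (plus) and Igfbp4 chr11:99041244-99054392 (plus). Cd4 spans chr6:124864692-124888221 (minus), Zbtb7b chr3:89377644-89394776 (minus) and Runx3 chr4:135120652-135177990 (plus). Cd8b1 (chr6:71322788-71337494, plus strand) and Cd8a (chr6:71373427-71379173, plus strand) are neighbours 35932 bases apart. RefSeq promoter windows, the 250 bases before each annotated start, were found for 8 of the 10 genes at 18 starts, and Cd4 and Cd8b1 had no entry. Lef1, by a start within the gene body, and Runx3 are shown because their windows hold letters that their own protein families read, and Dapl1 and Igfbp4 because their levels differed most between gates or stages. Capitals mark CTTTGA or CTTTGT, the core letters of TCF and LEF proteins, and ACCACA or ACCGCA, those of RUNX proteins, on either strand.
Lef1, chr3:131156044-131156293, plus strand, GRCm38.p6: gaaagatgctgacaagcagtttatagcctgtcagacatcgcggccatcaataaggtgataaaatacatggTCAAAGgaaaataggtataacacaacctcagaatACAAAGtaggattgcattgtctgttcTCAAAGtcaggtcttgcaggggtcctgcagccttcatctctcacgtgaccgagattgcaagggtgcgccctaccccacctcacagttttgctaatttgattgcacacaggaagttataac
Runx3, chr4:135120395-135120644, plus strand, GRCm38.p6: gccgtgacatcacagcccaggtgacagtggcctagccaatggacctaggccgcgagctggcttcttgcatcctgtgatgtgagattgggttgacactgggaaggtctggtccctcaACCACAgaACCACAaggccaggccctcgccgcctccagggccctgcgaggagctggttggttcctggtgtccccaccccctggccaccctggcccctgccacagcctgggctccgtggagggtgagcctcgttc
Dapl1, chr2:59484403-59484652, plus strand, GRCm38.p6: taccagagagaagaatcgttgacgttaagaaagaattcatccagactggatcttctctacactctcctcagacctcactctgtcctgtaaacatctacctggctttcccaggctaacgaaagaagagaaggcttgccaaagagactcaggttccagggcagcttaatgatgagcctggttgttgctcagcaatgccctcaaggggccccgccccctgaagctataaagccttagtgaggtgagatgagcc
Igfbp4, chr11:99040994-99041243, plus strand, GRCm38.p6: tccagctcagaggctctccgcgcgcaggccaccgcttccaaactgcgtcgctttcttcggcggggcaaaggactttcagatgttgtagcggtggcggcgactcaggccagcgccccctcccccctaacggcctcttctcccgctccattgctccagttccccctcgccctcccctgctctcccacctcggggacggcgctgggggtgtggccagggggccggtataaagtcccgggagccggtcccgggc
The TCF/LEF letters stood in 3 of the 18 windows (1 of Lef1, with 3 matches, and 2 overlapping windows of Satb1), against 27.6% of 32851 mouse promoter windows of the same length. RUNX letters stood in 2 of the 18 (Runx3, with 2 matches, and 1 window of Zbtb7b), against 18.6%. The Dapl1 and Igfbp4 windows held neither. A match is a description of the letters, and counts read near the end of a transcript do not show which start was used.

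The libraries held 67610110 Early and 83148059 Advanced UMIs, and T-lineage cells numbered 187 (2.27% of the kept cells) and 1233 (15.1%), with median depths of 11194 and 10955 UMIs. CD3 and T cell receptor constant genes together reached 4023 to 6737 CPM (UMIs of a gene per 1000000 UMIs of the group) in every T gate. The 7 B cell marker genes together stood at 454 to 2597 CPM in the T gates against 29001 and 29543 CPM in the B reference, and their part in the values below was not tested. Myeloid markers (6 genes) stood at 103 to 151 CPM in the Early gates and at 108 to 697 CPM in the Advanced ones, erythroid markers (2 genes) at 2.45 CPM at most. T cell RNA in the B reference was higher in the Advanced library: Lef1 stood at 1.17 and 6.37 CPM, Dapl1 at 0.133 and 2.29 CPM, and Igfbp4 at 1.23 and 5.6 CPM. Dapl1 UMIs lay 1 or 2 to a cell there, whereas single cells held 37 of the 74 Early Igfbp4 UMIs, 29 of the 82 Early Tcf7 UMIs and 50 of the 342 Advanced Tcf7 UMIs, so the reference is not free RNA alone. Satb1 (115 and 106 CPM), Runx3 (58.9 and 66.6 CPM) and Zbtb7b (12.4 and 13.8 CPM) are made by the B cells themselves, so the reference gives no background for these. Lef1, Tcf7, Satb1, Zbtb7b and Runx3 overlap other annotated transcripts, and the values are those of the symbol as counted.

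The first comparison asked how the lineage factors separated CD4 from CD8 cells. Neither gene was used by a gate. Zbtb7b stood on the CD4 side and Runx3 on the CD8 side in both libraries. Zbtb7b gave 4 UMIs (9.82 CPM) in Early CD4 cells and 1 UMI (3.51 CPM) in Early CD8 cells, a ratio of 2.8 whose interval, 0.277 to 138, allows either direction. In the Advanced library it gave 57 UMIs (38.1 CPM) in CD4 cells and 5 UMIs (2.72 CPM) in CD8 cells, 14-fold more (5.67 to 44.8). The difference thus stood clear of counting error in the Advanced library only, and at the Early depth it was not detectable.

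Runx3 stood at 46.6 CPM in Early CD4 cells and 102 CPM in Early CD8 cells, 2.18 times as high on the CD8 side. In the Advanced library it stood at 26.8 CPM in CD4 and 131 CPM in CD8 cells, 4.9 times as high. As CD4 over CD8 the intervals were 0.243 to 0.847 and 0.142 to 0.286, so both left out 1. The Early difference was less firm: as CD8 over CD4 it was 1.67 without cells that had a B cell UMI (0.402 to 6.55) and 1.93 with the CD8 gate on Cd8b1 alone (0.958 to 3.89), intervals that hold 1, and 8.18 without the deepest 2.5% of cells (2.79 to 32.5). A single cell held 8 of the 19 Early CD4 UMIs of Runx3. By cells, 17.9% of Advanced CD4 cells and 66.5% of CD8 cells had a Runx3 UMI, and 28.2% and 3.16% had a Zbtb7b UMI. Thinned to 3000 UMIs per cell, which left out 6 CD4 and 4 CD8 cells, the Runx3 shares were 7.33% and 33.1% and the Zbtb7b shares 14% and 1.95%.

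**Figure D1:**
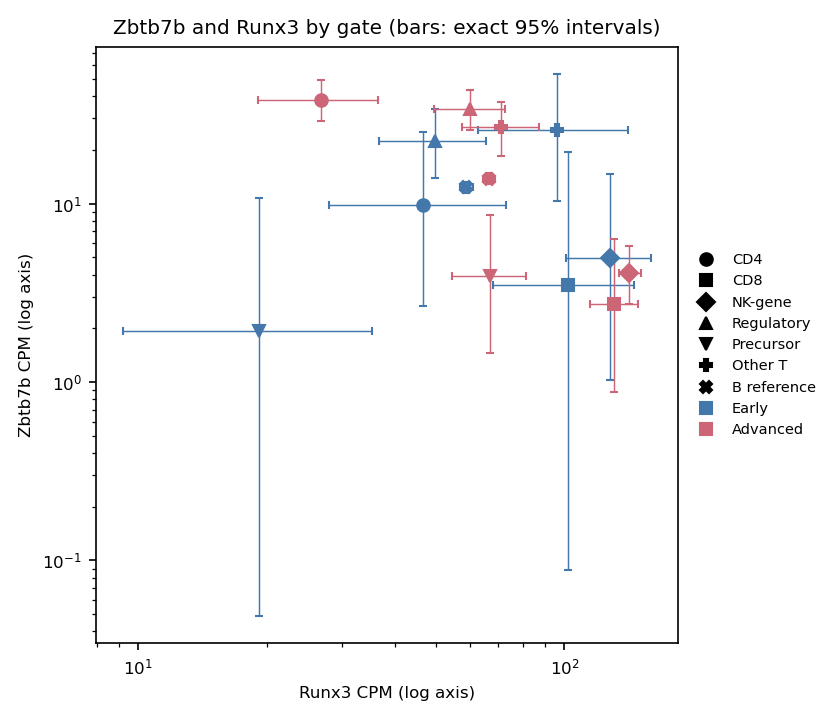
Runx3 (horizontal axis) and Zbtb7b (vertical axis) as CPM on log axes in each gated subset and the B reference (marker shapes) of the Early and the Advanced library (colours), with exact 95% Poisson intervals. Advanced CD4 cells lie highest for Zbtb7b (38.1 CPM) with Runx3 at 26.8 CPM, and the CD8 and NK-gene cells of both libraries lie at 102 to 142 CPM of Runx3 and 2.72 to 4.98 CPM of Zbtb7b.

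The pair was also read as a ratio within each gate. Advanced CD4 cells held 1.43 Zbtb7b UMIs per Runx3 UMI (0.935 to 2.19), whereas CD8 cells held 0.0207 and NK-gene cells 0.0286. Advanced regulatory cells, mostly of the CD4 lineage, lay between these with 0.56 (0.402 to 0.773). In the Early library the order was another, with 0.449 in regulatory (0.259 to 0.757), 0.211 in CD4 (0.0521 to 0.633) and 0.0345 in CD8 cells (0.000844 to 0.208), and the CD4 value rests on 4 Zbtb7b UMIs. Regulatory cells had Zbtb7b at 22.3 and 33.7 CPM together with Runx3 at 49.6 and 60.2 CPM. In the Advanced library Zbtb7b did not differ beyond counting error between CD4 and regulatory cells (1.13, 0.775 to 1.65), whereas Runx3 was 2.25 times as high in regulatory cells (1.55 to 3.32). A UMI of each gene in the same cell was found in 9 of 156 Advanced CD4 cells, of which 44 had Zbtb7b and 28 Runx3, in 2 of 158 Advanced CD8 cells, and in 12 of 63 Early and 21 of 164 Advanced regulatory cells. Other T cells, mostly without a coreceptor UMI, had Zbtb7b at 25.8 and 26.8 CPM, and in the Advanced library this was 9.83 times the CD8 level (3.84 to 32.1).

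The coreceptor genes check the gates. Among NK-gene cells, whose gate does not use coreceptors, 29 of 39 Early cells (74.4%) and 459 of 514 Advanced cells (89.3%) had a Cd8a or Cd8b1 UMI, and 3 and 16 cells had a Cd4 UMI. Against these, 0.843% and 6.18% of B reference cells had a Cd8a or Cd8b1 UMI, at median depths of 6591 and 7455 UMIs in the B reference and 12325 and 13156 UMIs in the NK-gene cells. Most of the NK-gene gate was thus carried by cells with CD8 coreceptor RNA, and Klrd1, a receptor gene of NK cells and CD8 T cells, gave 56.5% and 41.1% of the gate's UMIs. Regulatory cells showed Cd4 in 58.7% and 45.7% of cells, and a Cd8a or Cd8b1 UMI in 12 of 63 and 23 of 164 cells, a larger share than in the B reference, at median depths of 8824 and 6792 UMIs. Cd4 in regulatory cells stood at 92.1 and 85.6 CPM (0.929, 0.712 to 1.22).

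Cd8b1 was higher in the Advanced library in cells gated on Cd8a alone and in NK-gene cells. In cells gated on Cd8a alone, Cd8b1 stood at 445 CPM in 15 Early cells and 820 CPM in 132 Advanced cells (1.84, 1.53 to 2.24). In NK-gene cells it stood at 440 and 634 CPM (1.44, 1.27 to 1.64). In regulatory cells it stood at 32.4 and 44.7 CPM, a ratio of 1.38 whose interval (0.906 to 2.15) held 1, and in precursor cells the ratio of 1.89 (1.52 to 2.37) was 0.846 without the deepest 2.5% of cells. The partner chain Cd8a, read in cells gated on Cd8b1 alone, stood at 266 CPM in 13 Early cells and 309 CPM in 151 Advanced cells, a ratio of 1.16 whose interval (0.877 to 1.57) held 1. In NK-gene cells Cd8a stood at 213 and 240 CPM (1.13, 0.945 to 1.36).

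The next comparison placed the 5 naive factors across the gates. Tcf7 and Satb1 were highest in precursor cells and lowest in regulatory cells in both libraries. Tcf7 stood at 541 CPM in Early and 485 CPM in Advanced precursors, 1.8 (1.49 to 2.18) and 1.54 times (1.37 to 1.73) the next gate, and at 48.6 and 77.8 CPM in regulatory cells. Satb1 stood at 344 and 520 CPM in precursors and at 26.3 and 48.6 CPM in regulatory cells. Early CD4 cells, at 41.7 CPM of Satb1, were not above Early regulatory cells beyond counting error (1.59, 0.807 to 3.03). Regulatory cells of both libraries and Early CD4 cells thus had less Satb1 than the B reference, at 115 and 106 CPM. Among the other Advanced gates, Satb1 lay between 195 and 201 CPM, and no neighbours in that order differed beyond counting error.

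Dapl1 was led by the CD8 side. It stood at 641 CPM in Early and 676 CPM in Advanced CD8 cells, and at 500 and 570 CPM in NK-gene cells. CD4 cells held 177 and 383 CPM, which was 0.275 (0.207 to 0.364) and 0.567 (0.513 to 0.626) of the CD8 level. Precursor cells (15.4 and 15.1 CPM) and regulatory cells (13.2 and 24.3 CPM) had the lowest levels, and in both Early gates all Dapl1 UMIs came from 1 cell.

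Lef1 was level between CD4 (281 CPM) and CD8 cells (289 CPM) in the Advanced library (0.973, 0.854 to 1.11). In the Early library CD4 cells had 71.2 CPM and CD8 cells 196 CPM, and the CD4 level was 0.363 of the CD8 level (0.223 to 0.578). Precursor cells, high in the related Tcf7, were among the lowest for Lef1, at 55.7 and 98.5 CPM. Igfbp4 changed its order between libraries. In the Early library CD8 cells led with 102 CPM and CD4 cells held 12.3 CPM (0.121, 0.0365 to 0.315), whereas in the Advanced library CD4 cells led with 270 CPM and CD8 cells held 143 CPM (1.88, 1.61 to 2.21). Tcf7 went the other way from Dapl1, at 285 CPM in Early CD4 and 186 CPM in Early CD8 cells (1.53, 1.1 to 2.16), and at 316 and 227 CPM in the Advanced library (1.39, 1.22 to 1.59).

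**Figure D2:**
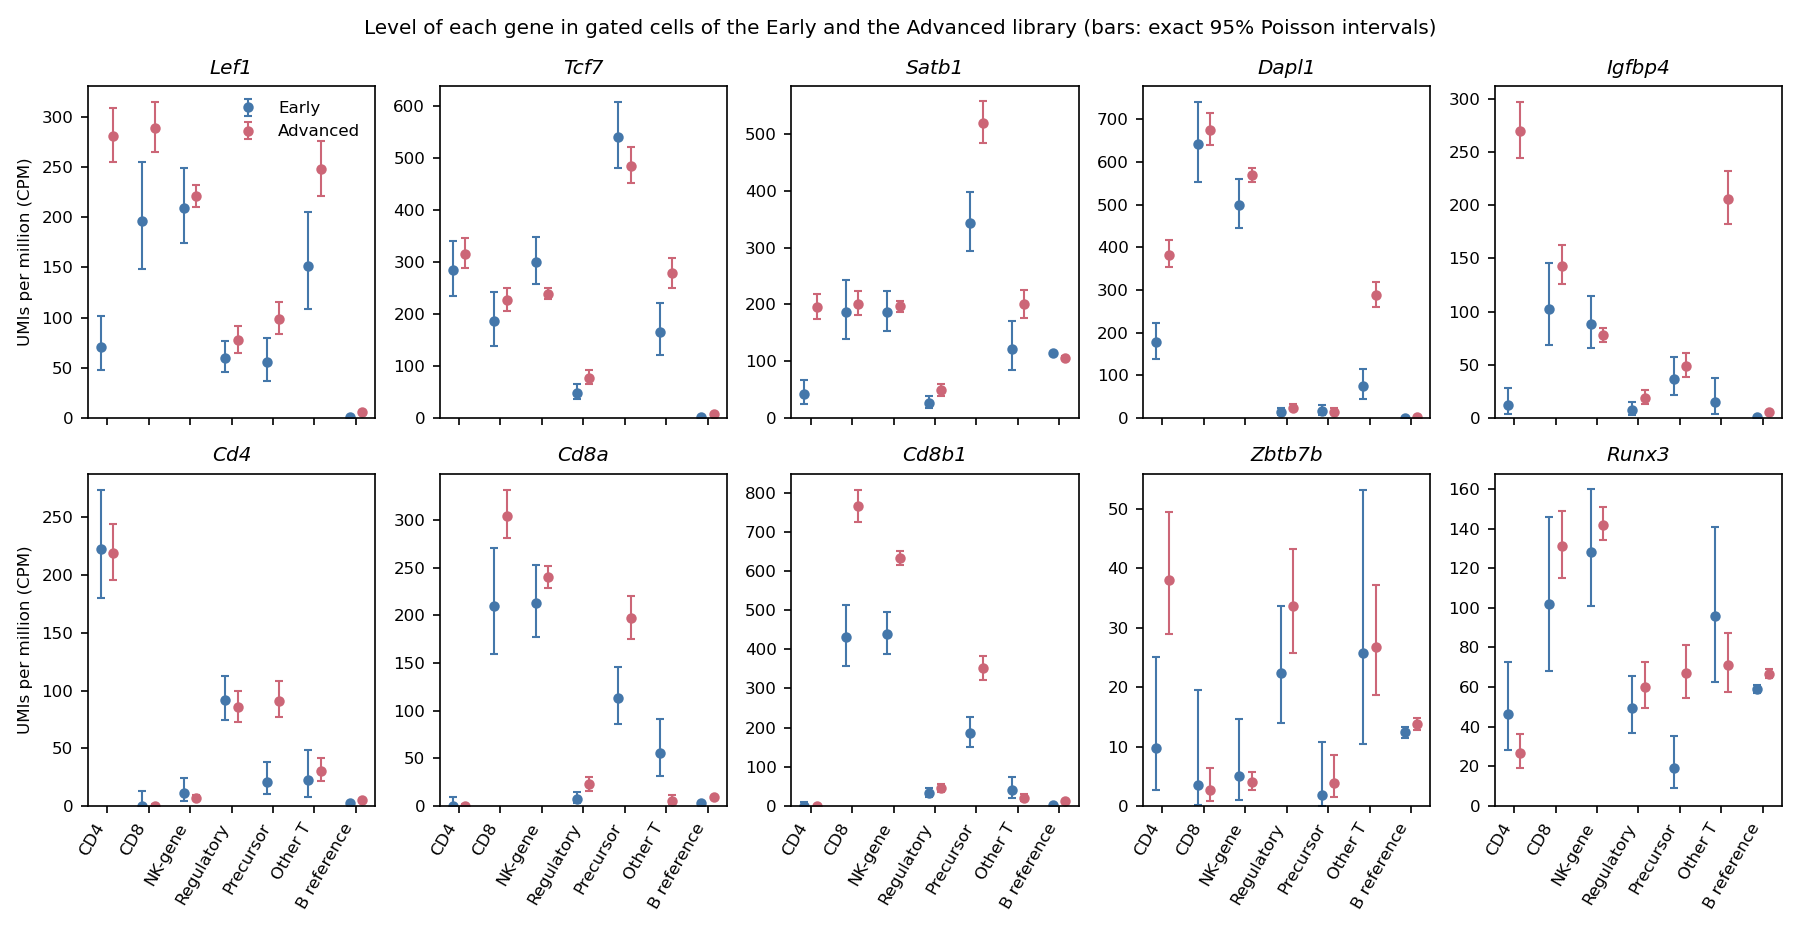
CPM (linear axis from 0) of each of the 10 genes in each gated subset and the B reference of the Early and the Advanced library (colours), with exact 95% Poisson intervals. Tcf7 and Satb1 peak in precursor cells, Dapl1 in CD8 cells (641 and 676 CPM), and the CD4 cells of the Advanced library stand above those of the Early library for Lef1, Satb1, Dapl1, Igfbp4 and Zbtb7b.

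By stage, CD4 cells and other T cells differed most in the naive factors. In CD4 cells, of the 8 genes that reached 10 CPM in either library (Cd8a and Cd8b1 are at 0 by the gate), 5 exceeded 2-fold in favour of the Advanced library and none the reverse. Among all 7666 genes at that level, the shares past 2-fold were 7.12% upward and 13.7% downward. Scaling by TMM factors, which moved these ratios by 0.302 on the log2 scale, turned the split over all genes from 546 higher and 1051 lower to 936 and 532, and each of the 5 ratios was at least as high with it. Lef1 gave 29 UMIs (71.2 CPM) in Early and 420 UMIs (281 CPM) in Advanced CD4 cells, 3.95 times as high (2.71 to 5.97). Satb1 stood at 41.7 and 195 CPM (4.68, 2.87 to 8.15), Dapl1 at 177 and 383 CPM (2.17, 1.7 to 2.81) and Zbtb7b at 9.82 and 38.1 CPM (3.89, 1.44 to 14.7). With coreceptor gates at 2 UMIs the Zbtb7b ratio was 2.41 (0.837 to 9.51) and without cells that had a B cell UMI 1.87 (0.398 to 17.5), and both intervals hold 1. Of the 72 Early Dapl1 UMIs, 31 came from 1 cell, and leaving out the top cell on both sides gave 3.37 (2.45 to 4.75). Igfbp4 had 5 Early UMIs, all in 1 of 28 cells, and 403 Advanced UMIs in 72 of 156 cells, so 12.3 and 270 CPM (22, 9.34 to 68), and without that cell the Early count is 0.

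The related factors Tcf7 and Lef1 parted in CD4 cells, since Tcf7 stood at 285 and 316 CPM (1.11, 0.904 to 1.37). Among the members that the gate did not use, Runx3 alone had a lower Advanced value, at 46.6 and 26.8 CPM (0.574, 0.325 to 1.05), an interval that holds 1, and without the deepest 2.5% of cells the ratio was 1.52. Counts of cells followed the sums: 46.4% of Early and 73.7% of Advanced CD4 cells had a Lef1 UMI, 17.9% and 46.2% a Dapl1 UMI, 25% and 60.9% a Satb1 UMI and 3.57% and 46.2% an Igfbp4 UMI. Thinned to 3000 UMIs these shares were 25% and 52% for Lef1, 14.3% and 41.3% for Dapl1, 14.3% and 38.7% for Satb1 and 3.57% and 40% for Igfbp4. The B reference at that depth had Lef1 in 0.388% and 1.41% of cells. Without any cell that had a B cell UMI, which left 9 Early and 37 Advanced CD4 cells, the Dapl1 ratio was 0.577.

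The 5 naive factors summed to 587 CPM in Early and 1445 CPM in Advanced CD4 cells (2.46, 2.16 to 2.83), and without cells that had a B cell UMI the ratio was 1.44 (1.14 to 1.82). Other T cells had a sum of 528 and 1220 CPM, a ratio near that of CD4 cells (2.31, 1.95 to 2.76), with Igfbp4 at 14.8 and 206 CPM (13.9, 5.38 to 51.5), Dapl1 at 73.8 and 288 CPM (3.9, 2.49 to 6.46), Lef1 at 151 and 248 CPM (1.64, 1.18 to 2.32) and Zbtb7b at 25.8 and 26.8 CPM (1.04, 0.453 to 2.76). In CD8 cells the same sum stood at 1311 and 1537 CPM (1.17, 1.05 to 1.31), in regulatory cells at 155 and 247 CPM (1.59, 1.32 to 1.93), in NK-gene cells at 1283 and 1303 CPM (1.02, 0.944 to 1.09) and in precursor cells at 992 and 1168 CPM (1.18, 1.07 to 1.3). The CD4 stage ratio exceeded the CD8 stage ratio 2.1 times for the sum (1.77 to 2.5), 2.68 times for Lef1 (1.68 to 4.28), 4.32 times for Satb1 (2.45 to 7.62), 2.06 times for Dapl1 (1.54 to 2.75) and 15.6 times for Igfbp4 (5.97 to 40.8). For Tcf7 that comparison gave 0.908 (0.64 to 1.29) and for Runx3 0.445 (0.228 to 0.868). In some narrower cells the excess in CD4 cells was not seen. Without cells that had a B cell UMI (9 Early CD4 and 5 Early CD8 cells) the sum gave 1.44 in CD4 and 1.48 in CD8 cells. Dapl1 gave 0.577 and 2.01 there and Tcf7 0.767 and 1.64, whereas Lef1 gave 3.83 (1.85 to 9.16) and 1.64 (0.828 to 3.68). Satb1 gave 3.92 (1.7 to 11.1) and 0.927 (0.513 to 1.82). Without cells that had an activation UMI (4 and 3 Early cells) the sum gave 1.43 in both. The excess of the sum stayed with coreceptor gates at 2 UMIs (2.13 and 1.05) and without the deepest 2.5% of cells (2.4 and 1.01).

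**Figure D3:**
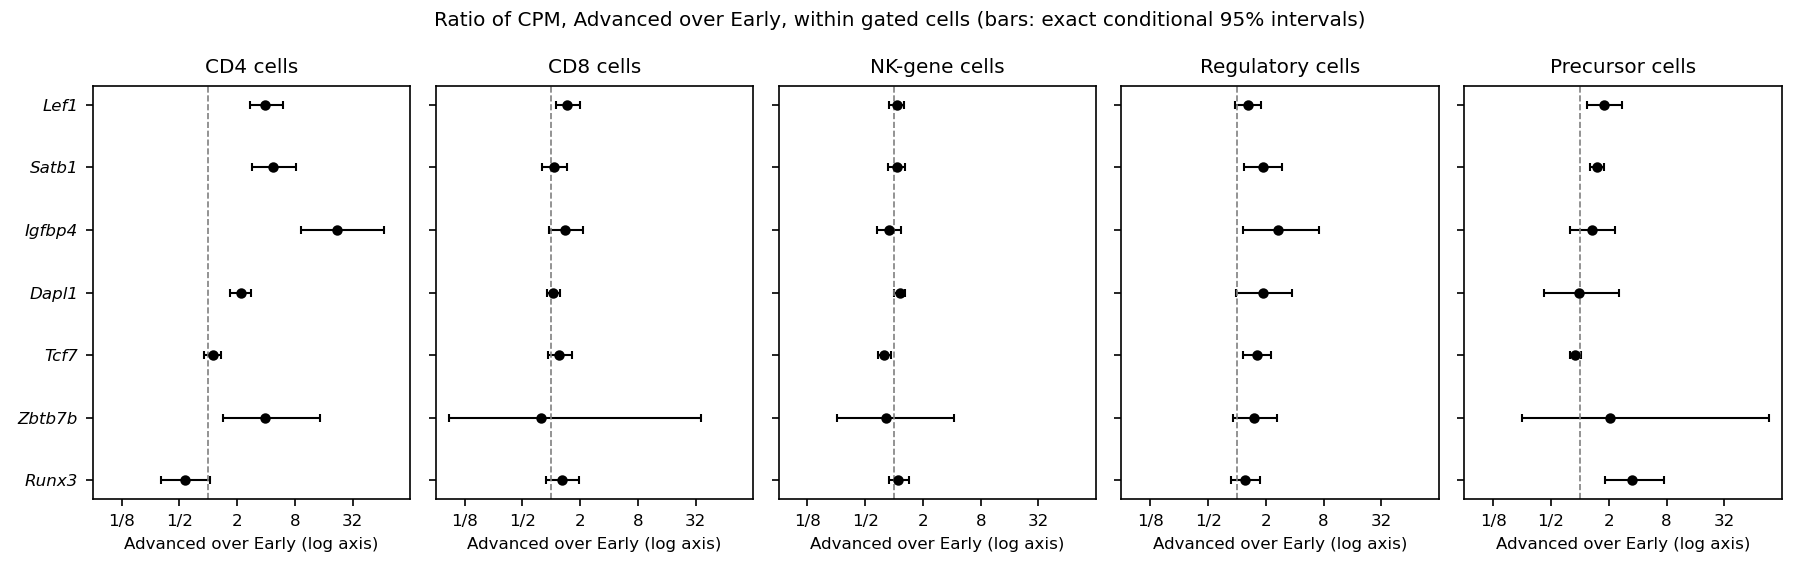
Advanced over Early ratio of CPM (log axis) of the 7 genes that no gate used, 1 panel for each gated subset, with exact conditional 95% intervals and a line at 1. CD4 cells lie farthest above 1 for Igfbp4 (22), Satb1 (4.68), Lef1 (3.95) and Zbtb7b (3.89), and NK-gene cells lie near 1.

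CD4 cells were next divided by RNA of 9 activation and helper genes (Pdcd1, Tnfrsf4, Cxcr5, Ascl2, Bcl6, Tbc1d4, Maf, S100a4 and Cxcr6). Cells with none of these UMIs were 4 of 28 Early (14.3%) and 68 of 156 Advanced CD4 cells (43.6%), with median depths of 6692 and 8978 UMIs against 11431 and 8279 in cells with at least 1. Within the Advanced library, cells without activation UMIs had 2.69 times the Lef1 (2.19 to 3.31), 3.1 times the Satb1 (2.41 to 4.01), 2.74 times the Dapl1 (2.3 to 3.28) and 2.63 times the Igfbp4 (2.14 to 3.25) of the rest. Tcf7 did not separate them (0.869, 0.717 to 1.05), nor did Zbtb7b (0.845, 0.469 to 1.49). In the Early library, with 4 and 24 cells, Satb1 gave 12.4 (4.17 to 36.3), Dapl1 3.08 (1.55 to 5.68) and the naive sum 2.81 (1.95 to 3.96). Early Igfbp4 gave 5 and 0 UMIs, the 5 in 1 cell. Early Lef1 (2.91, 0.868 to 7.78) and Tcf7 (1.18, 0.523 to 2.32) had intervals that hold 1.

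Held within these strata, the stage difference varied by gene and by stratum. In cells without activation UMIs the naive sum stood at 1470 CPM in the 4 Early cells and 2104 CPM in the 68 Advanced cells (1.43, 1.05 to 2.01). Satb1 stood at 294 and 326 CPM (1.11, 0.552 to 2.6) in these cells, an interval that holds 1. Lef1 gave 2.43 (1.03 to 7.56) and Dapl1 1.29 (0.743 to 2.44). In cells with at least 1 activation UMI the sum stood at 523 CPM in 24 Early cells and 991 CPM in 88 Advanced cells (1.89, 1.62 to 2.22). There Satb1 stood at 23.7 and 105 CPM (4.44, 2.24 to 10), Lef1 at 63.1 and 166 CPM (2.63, 1.7 to 4.24), and Zbtb7b at 10.5 and 40.7 CPM (3.87, 1.39 to 15). Igfbp4 gave 0 UMIs in those 24 Early cells, where 3 counts would be 7.89 CPM, and 162 CPM in the Advanced cells. The Advanced value was 20.5-fold that floor, and the exact interval of the ratio starts at 16.5. In the cells without activation UMIs Igfbp4 stood at 184 and 426 CPM (2.32, 0.981 to 7.2), an interval that holds 1.

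**Figure D4:**
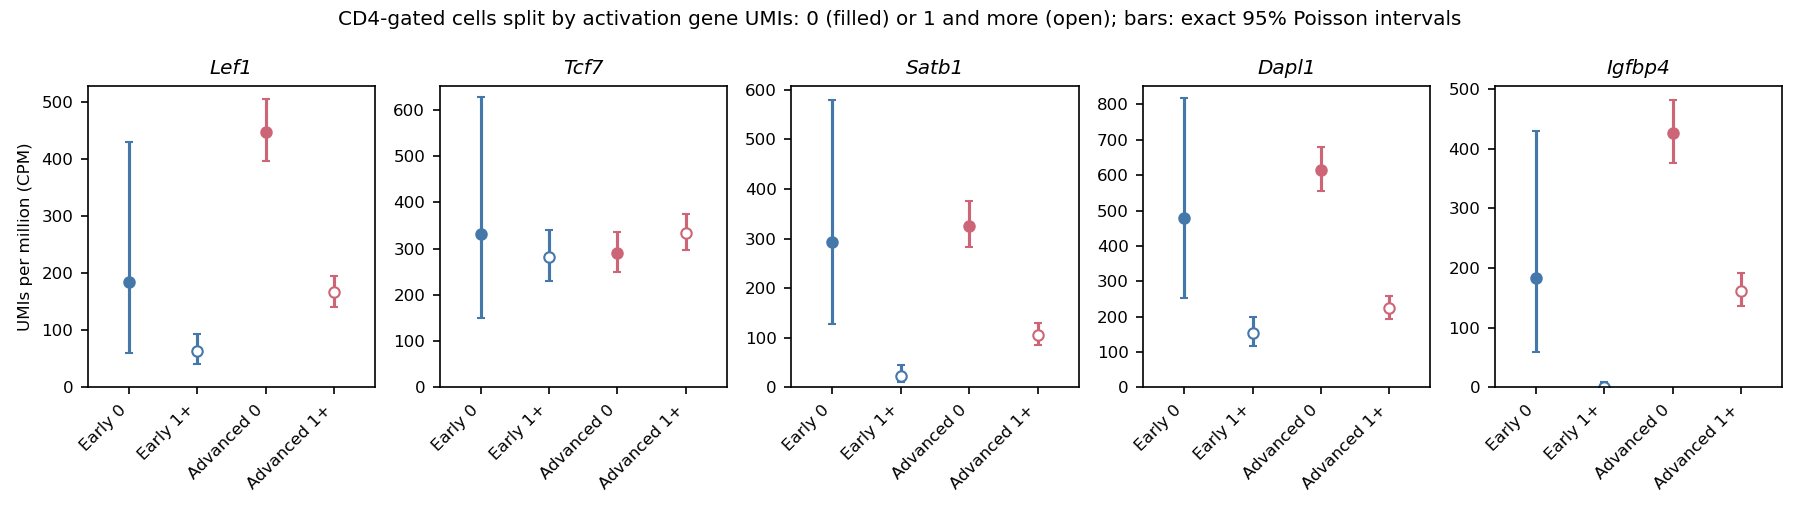
CPM (linear axis from 0) of the naive factors in CD4 cells with 0 UMIs (filled) and with 1 or more UMIs (open) of the 9 activation genes, Early and Advanced, with exact 95% Poisson intervals. Lef1, Satb1, Dapl1 and Igfbp4 are higher in Advanced cells without activation UMIs, and Tcf7 lies at 281 to 334 CPM in all 4 groups. Early Satb1, Dapl1 and Igfbp4 part in the same direction, on 4 cells without activation UMIs. The Early Lef1 values (184 and 63.1 CPM) do not part beyond counting error.

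CD8 cells showed smaller stage ratios. Lef1 stood at 196 and 289 CPM (1.47, 1.12 to 1.98), Tcf7 at 186 and 227 CPM (1.22, 0.916 to 1.66), Satb1 at 186 and 201 CPM (1.08, 0.811 to 1.47), Dapl1 at 641 and 676 CPM (1.05, 0.902 to 1.24), Igfbp4 at 102 and 143 CPM (1.41, 0.958 to 2.14) and Runx3 at 102 and 131 CPM (1.29, 0.876 to 1.97). Of these only the Lef1 interval left out 1. Lef1 gave 1.02 without the deepest 2.5% of cells (0.762 to 1.4) and 1.28 with Cd8b1 alone (0.942 to 1.78), intervals that hold 1. Among 16 alternative intervals for Lef1 in CD8 cells, 9 left out 1. With 17 Early cells, the naive sum ratio of 1.17 was 0.887 when the gate used Cd8b1 alone and 0.937 after thinning.

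NK-gene cells had no gene of the 10 over 2-fold apart in either direction (0 of 9 at 10 CPM or more). Among 7137 genes the shares past 2-fold were 4.13% upward and 8.79% downward. Tcf7 was lower in the Advanced library, at 300 and 239 CPM (0.794, 0.681 to 0.93), and Dapl1 slightly higher, at 500 and 570 CPM (1.14, 1.01 to 1.29). Both directions turned under other gates: with the coreceptor gates drawn first, which leaves the NK-gene gate the cells with both coreceptors or neither, the Tcf7 ratio was 2.29, and with Klrd1 and Klrk1 left out of the gate the Dapl1 ratio was 0.814. Within the gate, the Advanced cells with at least 2 UMIs of the 10 other receptor genes (175 cells) differed from those with none (314 cells). Igfbp4 gave 3 UMIs in the first and 534 in the second (0.00969, 0.00199 to 0.0285). Dapl1 stood at 117 and 802 CPM (0.145, 0.129 to 0.164), Lef1 at 108 and 288 CPM (0.376, 0.329 to 0.428) and Cd8b1 at 353 and 788 CPM (0.448, 0.415 to 0.482). Satb1 (196 and 200 CPM; 0.977, 0.874 to 1.09) and Runx3 (135 and 143 CPM; 0.942, 0.824 to 1.08) did not part the cells beyond counting error. The Early library, with 9 and 28 cells, gave Dapl1 at 143 and 611 CPM (0.234, 0.129 to 0.393) and Runx3 at 172 and 113 CPM (1.52, 0.836 to 2.64).

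Regulatory cells had low naive factor levels with Advanced values above Early ones. Tcf7 stood at 48.6 and 77.8 CPM (1.6, 1.15 to 2.27), Satb1 at 26.3 and 48.6 CPM (1.85, 1.18 to 2.98), Lef1 at 59.7 and 77.3 CPM (1.29, 0.948 to 1.78), Igfbp4 at 7.09 and 18.8 CPM (2.65, 1.16 to 7.08) and Zbtb7b at 22.3 and 33.7 CPM (1.51, 0.915 to 2.59). Of the 10 genes, Cd8a and Igfbp4 exceeded 2-fold upward, against shares of 5.69% upward and 2.72% downward over 7792 genes. The Early Cd8a value rests on 7 UMIs, 6 of them in 1 cell, and the Early Igfbp4 value on 7 UMIs, 5 of them in 1 cell. The Igfbp4 ratio was 7.36 with the top cell left out on both sides and 1.01 without cells that had a B cell UMI. It was 0.282 without cells that had an activation UMI, a setting that left 1 Early regulatory cell. The regulatory difference in the naive sum did not hold under every setting: without the deepest 2.5% of cells it was 0.937, and without cells that had a B cell UMI it was 0.465. Within the Advanced library, 12 cells without activation UMIs held the naive sum at 1219 CPM against 193 CPM in the other 152 (6.32, 5.07 to 7.83), and Dapl1 at 326 against 7.57 CPM (43, 21.9 to 89.6). The same 12 cells had more CD8 coreceptor RNA, with Cd8b1 at 179 against 37.3 CPM (4.79, 2.63 to 8.28) and Cd8a at 63.1 against 20.4 CPM (3.09, 1.06 to 7.43). They held 5 Cd4 UMIs (0.601, 0.192 to 1.43), and their lineage was not tested. Myeloid marker RNA in all regulatory cells stood at 151 CPM Early and 506 CPM Advanced, and its part was not tested.

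Precursor cells were higher in the Advanced library for Cd4, at 21.1 and 91.3 CPM (4.32, 2.34 to 8.86), and for Runx3, at 19.2 and 67 CPM (3.49, 1.82 to 7.5), the only members over 2-fold apart among the 9 at 10 CPM or more. Over 7902 genes, 12.8% passed 2-fold upward and 2.77% downward. Satb1 stood at 344 and 520 CPM (1.51, 1.29 to 1.79), Lef1 at 55.7 and 98.5 CPM (1.77, 1.18 to 2.73) and Tcf7 at 541 and 485 CPM (0.897, 0.781 to 1.03). Median depths were 30304 UMIs Early and 12573 UMIs Advanced, and leaving out the deepest 2.5% of cells kept 7 of the 20 Early precursors. In that setting Satb1 gave 0.893, and no Early Runx3 UMI was left. Cd4 gave 1.92 (0.862 to 5.33) and Lef1 1.92 (0.801 to 6.04) there, and both intervals hold 1. Plasmacytoid dendritic markers stood at 263 and 744 CPM, and Siglech, their defining gene, was at 0 in all Early T gates.

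The precursor gate held different cells by coreceptor. A Cd8a or Cd8b1 UMI was present in 12 of 20 Early and 54 of 97 Advanced precursors, and 6 and 36 of these also had a Cd4 UMI, the arrangement of thymocytes with both coreceptors. Cells without Cd8 had a Cd4 UMI in 0 of 8 and 5 of 43. The Advanced precursors had median depths of 4618 UMIs with Cd8 and 20764 UMIs without. At least 2 UMIs of the cycling genes Mki67 and Top2a were present in 9 of the 54 and 21 of the 43. The part of depth and cycling in the differences that follow was not tested. In the Advanced library Cd8-bearing precursors had Lef1 at 225 CPM against 34.6 CPM (6.48, 4.41 to 9.76), Satb1 at 1048 against 252 CPM (4.16, 3.57 to 4.84), and Tcf7 at 627 against 414 CPM (1.52, 1.31 to 1.76). Runx3 went the other way, at 29.3 against 86.1 CPM (0.34, 0.183 to 0.592), as did Igfbp4, at 15.6 against 65.3 CPM (0.239, 0.0991 to 0.499). The recombinase gene Rag1 (12.6, 9.74 to 16.7) and the T cell receptor alpha constant gene Trac (7.18, 5.11 to 10.3) stood with Lef1 and Satb1, and the delta constant gene Trdc (0.272, 0.207 to 0.352) stood with Runx3. Rag1 is also one of the gate's own genes, and in the Early library it stood on the other side (0.669, 0.382 to 1.17), while Trac gave 42 and 0 UMIs and Trdc 0.529 (0.356 to 0.782). The Early library, with 12 and 8 cells, gave Lef1 at 83.3 and 14.4 CPM (5.8, 1.78 to 30), Satb1 at 426 and 220 CPM (1.94, 1.37 to 2.77) and Tcf7 at 545 and 536 CPM (1.02, 0.796 to 1.3).

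By stage, the Cd8-bearing precursors had more Lef1 (2.69, 1.75 to 4.3), Satb1 (2.46, 2.03 to 3) and Cd4 (6.87, 3.71 to 14.1) in the Advanced library by CPM, with median depths of 29030 UMIs Early and 4618 UMIs Advanced. Those without Cd8 had Satb1 at 1.15 (0.835 to 1.6), Tcf7 at 0.772 (0.625 to 0.959) and Runx3 at 2.57 (1.2 to 6.58). The difference in depth moves with the stage within the Cd8-bearing cells, and its part in these ratios was not tested.

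**Figure D5:**
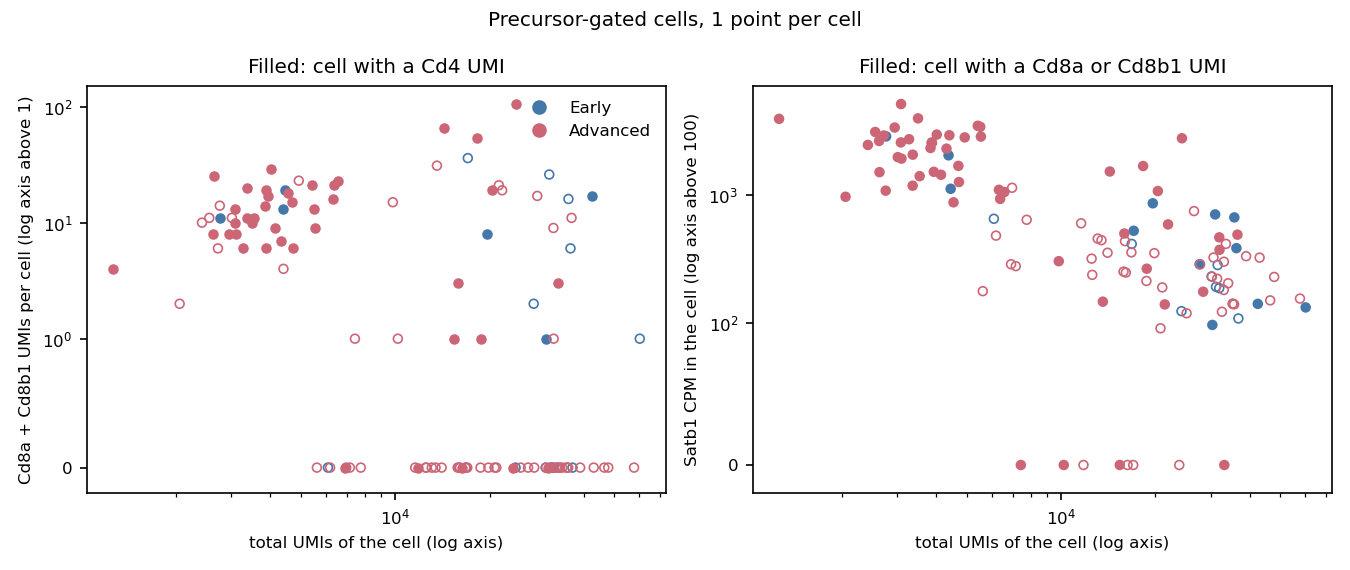
Each point is 1 precursor cell of the Early or the Advanced library (colours), by its total UMIs (horizontal log axes). The left panel gives its Cd8a and Cd8b1 UMIs (filled: with a Cd4 UMI) and the right panel its Satb1 CPM (filled: with a Cd8a or Cd8b1 UMI), both on axes that are linear near 0 and log above. Many Advanced cells with both coreceptors lie at few UMIs and high Satb1, where the Cd8-bearing median depth is 4618 UMIs.

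The gates differed in share as well as in level between libraries: regulatory cells were 33.7% of Early (27 to 40.9) and 13.3% of Advanced T-lineage cells (11.5 to 15.3), and NK-gene cells 20.9% (15.3 to 27.4) and 41.7% (38.9 to 44.5). Over all T-lineage cells, Cd4 was 0.692 of its Early level in the Advanced library, and the Advanced shares with Early levels alone gave 0.699, leaving 0.99 for the level within gates. Zbtb7b had a total ratio of 1.02, with 0.746 from shares and 1.37 from levels. Dapl1 had 2.17, with 1.63 from shares and 1.33 from levels, Cd8b1 had 2.55, with 1.54 and 1.66, and Lef1 had 1.88, with 1.33 and 1.41. Igfbp4 had 2.77, with 1.5 and 1.85, and Tcf7 had 1.08, with 1.14 and 0.945. The split depends on which library's levels are held. With Advanced levels, Igfbp4 had 1.11 from shares and 2.49 from levels, Dapl1 1.48 and 1.46, Lef1 1.2 and 1.57, and Cd8b1 1.49 and 1.71. These splits are arithmetic on the 6 gates, and a fall in share cannot be told apart from a rise of the other gates. Cd4, Cd8a and Cd8b1 also define the CD4, CD8 and other T gates. A change in these genes moves cells between gates and counts as share, so their split is partly set by the gates.

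Partner genes were read beside the members by counts. In CD4 cells by stage, 19 of 20 other naive T genes reached 10 CPM, 16 stood above 1 and 11 exceeded 2-fold upward and none downward, with a median log2 ratio of 1.08 against -0.28 over all genes. They included the lymph node homing receptor Ccr7 (29.5 and 205 CPM; 6.95, 3.92 to 13.6), the egress receptor S1pr1 (3.45, 2.48 to 4.94) and the repressor Bach2 (5.54, 1.81 to 27.6). Effector and memory genes lay apart from these: of 19 measured, 1 exceeded 2-fold upward and 7 downward, with a median of -0.66, and Prdm1, which encodes the repressor Blimp-1, gave 0.039 (0.000864 to 0.303) and the homing receptor Cxcr6 0.244 (0.119 to 0.496), whereas the chemokine gene Ccl5 gave 13 (6.52 to 30.3). TCF and beta-catenin partners followed the background, with 2 of 11 over 2-fold higher (Bcl9l 5.82, Tle4 2.26) and a median of -0.29. CD4 lineage partners had 0 of 9 over 2-fold either way, CD8 lineage partners 3 of 9 higher and 2 lower, and 3 of 10 genes of the IGF axis reached 10 CPM, 1 of them over 2-fold higher. S100a4 and Cxcr6 are also activation genes above, and Ccl5, Nkg7, Tbx21 and Eomes stand on both the CD8 lineage and the effector list.

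Between Advanced CD4 and CD8 cells, 7.51% of 7372 genes passed 2-fold on the CD4 side and 2.37% on the CD8 side. CD4 lineage partners had 4 of 9 higher and 0 lower, with a median of 0.73 against 0.15 over all genes: Cd40lg, the ligand by which T cells help B cells, stood at 146 and 9.8 CPM (14.9, 9.2 to 25.6), Gata3 at 2.79 (2.04 to 3.84), Runx1 at 2.63 (1.86 to 3.78) and Tox at 2.22 (1.84 to 2.69). Of the CD8 lineage partners, 1 of 8 was higher, Runx1 again, which stands on both lineage lists, and 2 lower, the granule gene Nkg7 at 0.0938 (0.0716 to 0.121) and Eomes at 0.343 (0.165 to 0.662). Naive T genes had 2 of 20 higher and 1 lower, the gut homing receptor Ccr9 (0.0529, 0.0141 to 0.14). Effector genes had 4 of 17 higher and 3 lower, TCF partners 0 of 11 either way, and IGF axis genes 1 of 3 higher.

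In the other gates by stage, 5.69% of all genes at 10 CPM or more passed 2-fold upward and 2.72% downward in regulatory cells. The shares were 4.13% and 8.79% in NK-gene cells, and 12.8% and 2.77% in precursor cells. Beside these, naive T genes had 4 of 18 over 2-fold higher in regulatory cells (Id3 2.66) and 0 of 19 in NK-gene cells. In precursor cells they had 7 of 20 (Klf2 9.75, Ccr9 3.43), with none lower in any gate. Effector genes had 2 higher and 1 lower of 18 in regulatory cells, 1 and 3 of 18 in NK-gene cells (S100a4 0.21), and 9 and 0 of 14 in precursor cells, where S100a4 stood at 1.92 and 86.7 CPM. TCF partners had 1 higher and 1 lower of 11, 1 and 2 of 11 (Myb 0.262), and 1 and 0 of 10 in regulatory, NK-gene and precursor cells. CD4 lineage partners had 0 and 0 of 9, 0 and 2 of 9, and 1 and 0 of 8, and CD8 lineage partners 2 and 0 of 7, 1 and 0 of 9, and 2 and 0 of 7. The IGF axis had 0 and 0 of 2, 0 and 1 of 3 (Igf1r 0.31), and 0 and 0 of 3.

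The genes whose levels ran most alike were sought over 13 points, the gates by library with at least 20 cells plus the B reference, among 7324 genes, as Pearson's r of log2(CPM + 10). The points share libraries and the gates share genes with the members, so r is a description. Cd8a was closest to Cd8b1 (r = 0.976), its chain partner and genomic neighbour. Tcf7 was closest to Themis (0.973), a signalling gene of thymocytes, Lef1 to Itm2a (0.971), Dapl1 to Apol7e (0.962) with the kinase gene Txk at 0.931, and Igfbp4 to Npc2 (0.947). Cd4 was closest to Phax (0.926), Satb1 to 2300009A05Rik (0.88), Zbtb7b to Dusp1 (0.875) and Runx3 to Cd7 (0.846).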

How the data were processed

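Single-cell RNA of 2 pooled PLN libraries was analysed. The deposited values are counts: whole-number UMIs per gene and cell barcode, in barcodes that the authors had called as cells, with no normalisation. Per the file headers these counts were made with Cell Ranger 6.0.1. Seurat 4.0.3, the mm10 build and Cell Ranger under the versions 3.1.0 and 3.1 stand in the processing notes of the submitters, and the version can change which reads and barcodes count. Cells with at least 200 genes were kept (8221 Early, 8183 Advanced), doublets were not removed, and 19 barcode strings were shared by kept cells of both libraries. UMIs were summed per gate and scaled to CPM, with exact Poisson, conditional and Clopper-Pearson 95% intervals (numpy 2.4.6, scipy 1.17.1) that cover counting error only. Ratios of ratios used a log-scale normal interval. With 1 library per stage no test was run, and genes were counted when they reached 10 CPM in a group and differed over 2-fold, with 0 UMIs set at 3 counts, in gates of at least 20 cells. TMM (edgeR 4.0.16) and DESeq2 1.42.0 factors served only as other scalings. All 10 members were measured in every gate and library, but the text does not give every value. List genes given with CPM or a ratio were among the 4 of their list farthest from 1. Not all of those 4 were named, and the farthest was at times left out. The members, gates and lists were chosen with earlier results of these data known. The scripts were tested on simulated data.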

Additional observations from a re-analysis of the deposited data

Results flagged for a closer look

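The stage ratio of Tcf7 lay on opposite sides of 1 in different gates. It was 1.6 (1.15 to 2.27) in regulatory cells and 1.67 (1.23 to 2.34) in other T cells, but 0.794 (0.681 to 0.93) in NK-gene cells, so the regulatory ratio was 2.02 times and the other T ratio 2.1 times the NK-gene ratio. With 1 library per stage the difference was not tested. The regulatory direction turned in 5 alternatives (0.423 to 0.999, the lowest with 1 Early cell left) and the NK-gene direction in 1 (2.29). Markers of gamma delta T cells (4 genes) stood at 397 CPM in Early and 87.9 CPM in Advanced NK-gene cells, at 502 and 314 CPM in other T cells and at 2.02 and 14.4 CPM in regulatory cells, and their part was not tested.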

How the results depend on the processing

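Ratios of Zbtb7b and Runx3 between CD4 and CD8 cells kept their side of 1 in all 61 alternatives that gave a value. Zbtb7b ran from 7.87 to 30.7 in the Advanced library, and in the Early one only 2 of 11 intervals left out 1 and 5 alternatives had 0 UMIs on a side. Runx3, CD8 over CD4, moved to 8.18 (without the deepest 2.5% of cells) and 5.6 (thinned to 3000 UMIs) in the Early library, and to 14.1 (no cell with a B cell UMI) and 7.58 (no activation UMI) in the Advanced one. Of 705 alternatives for single genes by stage, 578 lay within the main ratio's own interval. Another 18 crossed 1 where the main interval had left out 1, and 109 lay outside the interval without such a turn. A wide interval takes in most alternatives, so the first count is no measure of stability. For Zbtb7b in CD8 cells, for example, the main interval was 0.0869 to 36.7 and the alternatives ran from 0.27 to 1.9.

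The stage ratio of the summed naive factors in CD4 cells (2.46) was 1.44 without cells that had a B cell UMI, 1.43 without cells that had an activation UMI, 2.13 with coreceptor gates at 2 UMIs, 2.08 thinned, 2.07 with cells weighted equally, 2.89 with immunoglobulin, ribosomal protein and mitochondrial genes left out, 3.04 with TMM and 3.01 with DESeq2 factors. In CD8 cells (1.17) the same settings gave 1.48, 1.43, 1.05 and 0.937 (thinned), then 1.41 and 1.39 for the scalings, 1.01 without the deepest 2.5%, 0.887 with Cd8b1 alone and 1.01 with coreceptor gates before the NK-gene gate. In regulatory cells (1.59) it was 0.465 without B cell UMIs, 0.937 without the deepest cells, 0.922 thinned, 1.17 without activation UMIs (1 Early cell) and 1.04 with equal weights. In NK-gene cells (1.02) it was 0.885, 0.86, 0.877 and 0.88 in the first 4 of these, then 1.15 without the abundant genes, 1.2 and 1.19 for the scalings, 0.904 with thresholds of 3 and 2 UMIs and 0.832 without Klrd1 and Klrk1. In precursor cells (1.18) it was 1.53, 1.06, 1.57 and 1.36, and 1.49 with equal weights.

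The turned ratios that follow are those whose main interval left out 1. Without B cell UMIs they were Dapl1 in CD4 cells (0.577), Tcf7 (0.493) and Satb1 (0.815) in regulatory cells and Runx3 in precursors (0.872). Without the deepest cells they were Tcf7 in regulatory cells (0.797), Dapl1 in NK-gene cells (0.956) and Satb1 (0.893), Cd8a (0.681) and Cd8b1 (0.846) in precursors. Thinned, Tcf7 in regulatory (0.983) and Dapl1 in NK-gene cells (0.927) turned. Without activation UMIs Tcf7 (0.423) and Igfbp4 (0.282) turned in regulatory cells, where 1 Early cell was left, and Dapl1 in NK-gene cells (0.927). Equal weights gave Tcf7 in regulatory cells as 0.999, coreceptor gates first gave Tcf7 in NK-gene cells as 2.29, and the stricter or shorter NK gate gave Dapl1 as 0.913 and 0.814. The cause was not tested. The shorter NK gate, the gate order and leaving out cells with myeloid or Siglech UMIs were chosen after seeing the data.

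Counts of genes over 2-fold, higher then lower, by stage in CD4, regulatory, NK-gene and precursor cells and then for CD4 over CD8, were 60 and 325, 38 and 39, 20 and 130, 147 and 23, and 101 and 21 at 50 CPM, and 1052 and 2401, 1126 and 728, 661 and 1628, 2073 and 711, and 1408 and 518 at 1.5-fold. With no minimum the counts that moved were 4074 lower, 1119 and 2172, 691 and 5958, 1551 and 2910, and 2347 and 1496. Without the abundant genes 1035, 715 and 709 were higher in CD4, regulatory and NK-gene cells, and 406 and 417 lower in precursors and CD4 over CD8. TMM gave 936 and 532 in CD4, 480 and 405 in NK-gene cells, and 276 lower for CD4 over CD8. Without each gene's highest cell there were 912 and 402 in CD4, 593 and 213 in NK-gene cells, and 82 lower in precursors. Depth limits the Early values most, where a gate of 17 to 63 cells sets a floor of 3 counts at 3.04 to 11.1 CPM. No paired analysis was possible because each stage is 1 pooled library with no replicate.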
